A study of Mus musculus with 53 samples.

Results

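Lung tumours that carried a vector against Setd2 were followed at 15 weeks of growth in mice of 3 genotypes, each against the inert tumours of the same mouse. The tumours were taken as every entry labelled Setd2 in the deposited table of tumour sizes from mice given the pool of vectors. They numbered 20267 of the 335123 tumours listed in those 35 mice, or 6.05%, and of 409584 listed in all 53 mice of the series. There were 9005 in 10 KTC mice, 8088 in 12 KPTC mice and 3174 in 13 KLTC mice. The inert tumours, which carried sgRNAs meant to cut no gene of interest, numbered 39940, 39164 and 12177 in the same mice.

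All mice had received lentivirus through the trachea, which started tumours by Cre recombinase and edited genes by Cas9. By the customary code of these strains, T stands for a red fluorescent reporter and C for Cas9, and all 3 genotypes share the alleles that the code KTC stands for. P stands for p53 alleles and L for Lkb1 alleles that Cre deletes, so KPTC tumours also lose p53 and KLTC tumours also lose Lkb1. The pool held vectors against 11 genes, among them Setd2, and the inert vectors. Other mice, killed after 9 weeks, had received a single vector, either inert or against Setd2, and serve here as context only.

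Each mouse gave 1 library, made from the DNA of the whole lungs, and the mouse is the replicate throughout. The table merges all inert sgRNAs under 1 label. It does not tell which sgRNA against Setd2 a tumour carried, nor whether the gene was cut in that tumour. How much of the virus each vector made up is not known here, so the number of Setd2 tumours relative to inert tumours can be compared between genotypes but has no zero point of its own.

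Setd2 (gene ID 235626) encodes a methyltransferase that places the trimethyl mark on a lysine of histone H3 along the bodies of transcribed genes. The enzyme travels with elongating RNA polymerase II, and its mark is tied to splicing, the silencing of cryptic transcription starts and DNA repair. SETD2 is recurrently mutated in human lung adenocarcinoma and in clear cell kidney cancer, and it is classed as a tumour suppressor. Lkb1, also named Stk11, encodes a kinase that activates AMPK and related kinases, and p53 is the transcription factor that halts or kills cells with damaged DNA.

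A tumour is known in the table by the 21-base barcode of the vector that started it. The largest Setd2 tumour of each genotype is shown here with the barcode that was listed in most mice under the Setd2 label, because the same barcodes recur between mice and some results below turn on this. All are printed as they stand in the deposited table, with the letters of the fixed pattern AA, TT, AA in capitals where the barcode has it.
Largest Setd2 tumour in KTC, replicate 7: AAccggcTTtaacgAAgcttc
Largest Setd2 tumour in KPTC, replicate 9: aagtagtgtttgggaaaccac
Largest Setd2 tumour in KLTC, replicate 4: AAtccacTTcattaAAccggg
Setd2 barcode listed in most mice: AAtgaggTTctaacAAcggct
The fixed pattern was present in 90.3% of the Setd2 tumours of the pool mice and in 91.5% of the inert ones.

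The KTC tumour held 3006454 cells, and its barcode was listed under Setd2 in 6 other mice at 647 to 3073 cells. The KPTC tumour held 4656346 cells, and its barcode was listed in 16 other mice at 840 to 41676 cells. The KLTC tumour held 3429138 cells, and its barcode was listed in 26 other mice at 587 to 16424 cells. In these 3 cases the other entries were at least 100 times smaller than the largest. The most widely listed barcode had another pattern. It appeared in 31 mice, 30 of them pool mice, at 2162 to 133544 cells, with no entry far above the rest.

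Setd2 tumours were larger than inert tumours in every KTC and every KPTC mouse. Size was summarised as the log-normal mean, which is the mean of a skewed distribution estimated from the mean and variance of log size, and the effect is the log2 ratio of Setd2 to inert tumours of the same mouse. In KTC mice the log-normal mean of Setd2 tumours ranged from 2804 to 9533 cells with a median of 5387, and that of inert tumours from 1179 to 3624 with a median of 2432. The mean log2 ratio was 1.22 ± 0.43 (SD, n = 10), a 2.32-fold larger size, positive in 10 of 10 mice (two-sided exact sign-flip permutation test over mice, Benjamini-Hochberg adjusted over the 11 targets, adjusted p = 0.00716). The smallest ratio of a KTC mouse was 0.59 and the largest 1.93, so no KTC mouse was close to equality. Of all targets tested in KTC, 45.5% passed the same test.

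In KPTC mice, whose tumours also lack p53, the log-normal mean of Setd2 tumours ranged from 2156 to 7092 cells with a median of 3547, and that of inert tumours from 1360 to 5001 with a median of 1823. The mean log2 ratio was 0.69 ± 0.38 (SD, n = 12), or 1.62-fold, positive in 12 of 12 mice (same exact test, adjusted p = 0.00134). With single-mouse barcodes the effects were smaller, 0.74 in KTC and 0.30 in KPTC, and both passed. The KPTC ratios of all listed tumours ran from 0.29 to 1.48 with a median of 0.55, so the ranges of the KTC and KPTC mice overlap. The share of targets that passed in KPTC was 72.7%, so a call there is shared with most other targets.

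In KLTC mice, whose tumours also lack Lkb1, the sizes of both kinds of tumour spread widely. The log-normal mean of Setd2 tumours ranged from 2389 to 79636 cells with a median of 8548, and that of inert tumours from 1824 to 70047 with a median of 7932. The mean log2 ratio of all listed tumours was 0.12 ± 0.50 (SD, n = 13), positive in 9 of 13 mice, from -0.83 to 0.78 (same exact test, adjusted p = 0.555). In KLTC, 9.09% of targets passed. This value depended on which barcodes were counted. A tumour is called matched when another mouse lists the same target and barcode with at least 10 times as many cells, and without matched tumours the effect was 1.07 ± 0.82, positive in 11 of 13 mice (exact permutation adjusted p = 0.00806). It was -0.15 ± 0.63 with barcodes listed in a single mouse (exact permutation adjusted p = 0.532) and -0.72 ± 1.16 without barcodes listed in 9-week mice (exact permutation adjusted p = 0.113). By its construction the first filter can remove a tumour only if it is small beside another entry, and it removed 44.0% of Setd2 but 26.4% of inert tumours in KLTC, so values without matched tumours are conditioned on size and are not a test free of it.

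**Figure D1:**
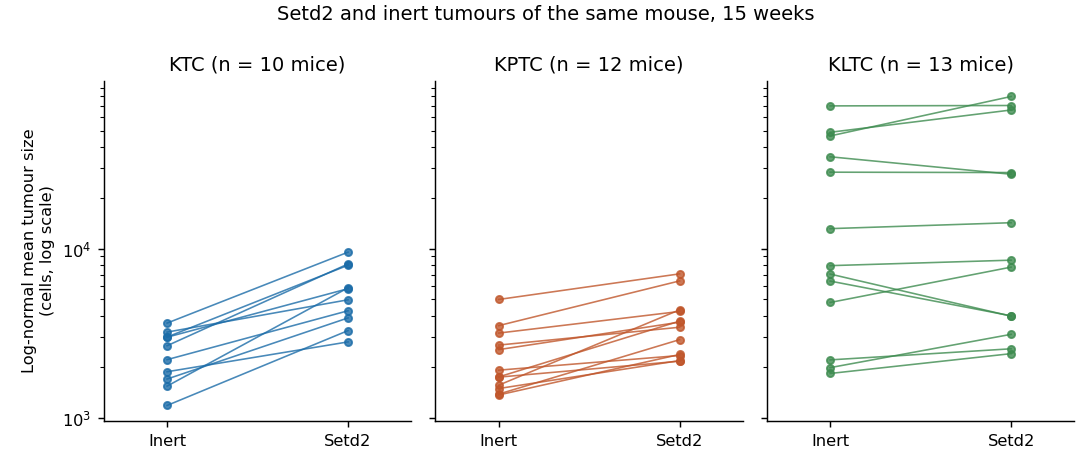
Each line joins the inert and the Setd2 tumours of 1 mouse at 15 weeks, with the log-normal mean tumour size in cells on a log axis and 1 panel per genotype. Every line climbs in the 10 KTC and 12 KPTC mice, whereas the 13 KLTC mice span a far wider range of sizes and 9 of their lines climb.

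In KTC and KPTC the mean ratio was higher at the upper percentiles of size than at the median, though the difference between percentiles was not itself tested. The middle of the distribution was compared first. In KTC mice the median Setd2 tumour held 986 to 1460 cells and the median inert tumour 719 to 1432. The log2 ratio of the medians was 0.19 ± 0.24 (SD, n = 10; exact permutation test adjusted over 11 targets and 5 percentiles, adjusted p = 0.0776), which did not pass. The ranges overlapped, and 5 of the 10 inert medians lay below the lowest Setd2 median. These medians were not far above the smallest listed sizes of KTC mice, 501 to 935 cells.

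The ratio then widened up the distribution in KTC. It was 0.53 ± 0.47 at the 75th percentile, 1.56 ± 0.68 at the 90th and 2.35 ± 0.84 at the 95th, where Setd2 tumours were 5.10-fold larger. At the 99th percentile it was 2.07 ± 0.80. These 4 of 5 percentiles passed (exact permutation test, adjusted p = 0.00977 for each), against 29.1% of all target-percentile pairs in KTC. The 95th percentile of Setd2 tumours ranged from 15746 to 131913 cells, with a median of 55918, against 3836 to 17166 for inert tumours, with a median of 12147. The highest KTC mouse for inert tumours thus lay only just above the lowest for Setd2.

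In KPTC the ratio of the medians was 0.10 ± 0.14 (n = 12, positive in 11 of 12 mice; exact permutation test, adjusted p = 0.0537 over targets and percentiles and 0.0499 over the 11 targets alone), so its call rests on the adjustment. Some of the positive ratios were close to equality. The Setd2 and inert medians were 1484 and 1479 cells in replicate 6, and 2473 and 2447 in replicate 12. Listed sizes in these mice lie in steps of 291 and 486 cells. The medians were also not far above the smallest listed sizes of KPTC mice, 510 to 982 cells. The ratio was 0.24 ± 0.23 at the 75th percentile, 0.80 ± 0.50 at the 90th, 1.36 ± 0.80 at the 95th and 2.01 ± 1.0 at the 99th. Adjusted over targets and percentiles, the same 4 of 5 percentiles passed as in KTC, against a background of 56.4%. Setd2 tumours were 4.03-fold larger at the 99th percentile, where 12 of 12 mice were above their inert tumours.

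In KLTC none of the 5 percentiles passed, with or without adjustment, and 3.64% of all target-percentile pairs passed (exact permutation test). The ratios were 0.02 ± 0.22 at the median, -0.03 ± 0.73 at the 75th percentile, 0.33 ± 0.78 at the 90th, 0.11 ± 0.98 at the 95th and -0.11 ± 1.02 at the 99th (n = 13). A KLTC mouse held 43 to 1033 Setd2 tumours (median 202) and 171 to 4279 inert ones (median 751). The upper percentiles of some mice therefore rest on few tumours. In replicate 1, with 43 Setd2 tumours, their 99th percentile was 15867 cells and the largest held 15886. At the 95th percentile 10 of 13 mice were above their inert tumours, while replicates 4 and 8 stood far below at -1.81 and -2.14. Without matched tumours 2 of the 5 percentiles passed, under a filter that removes mainly small tumours. With single-mouse barcodes 0 of 5 passed, and the mean at the 95th percentile was -0.30, against -1.31 without barcodes of the 9-week mice.

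**Figure D2:**
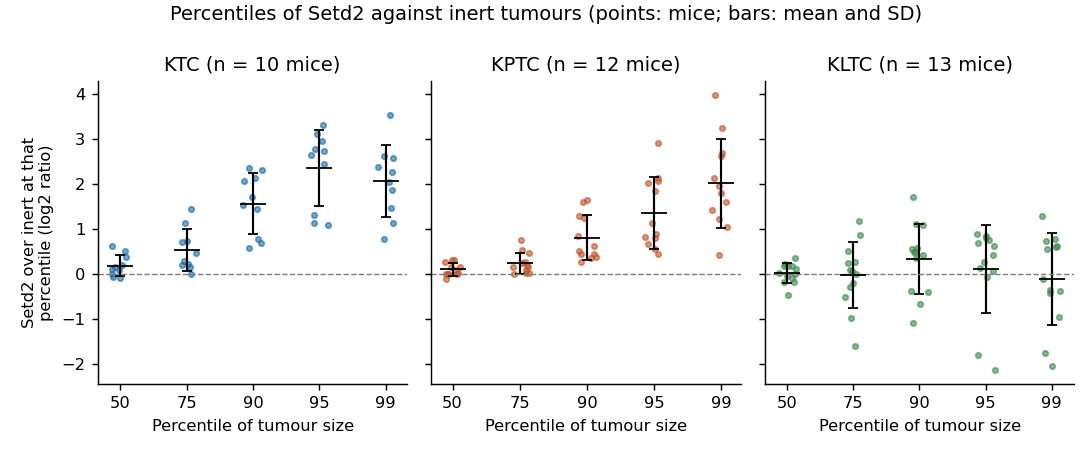
The log2 ratio of Setd2 to inert tumours is plotted at the 50th, 75th, 90th, 95th and 99th percentile of tumour size, with points standing for mice and bars for their mean and SD. The mean climbs from 0.19 to 2.35 between the 50th and 95th percentile in KTC and from 0.10 to 2.01 between the 50th and 99th in KPTC, and stays between -0.11 and 0.33 in KLTC.

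Shares of tumours above fixed sizes put this on an absolute scale. Of KTC Setd2 tumours, 6.60% to 16.6% per mouse held at least 10000 cells, with a median of 11.9%, and of inert tumours 2.07% to 8.51%, with a median of 6.08%. The difference was 6.37 ± 2.48 percentage points and positive in 10 of 10 mice (exact permutation test adjusted over 11 targets and 3 sizes, adjusted p = 0.0161). At 100000 cells it was 2.59 ± 1.77 points (adjusted p = 0.0258) and at 1000000 cells 0.15 ± 0.16 points (adjusted p = 0.043), so 3 of 3 sizes passed against 18.2% of all pairs. When single KTC mice were left out, 8 of the 10 fits, all but those without replicate 9 or 10, kept only 1 of these 3 calls. Each such fit has 1 mouse fewer, so its smallest possible exact p is above the 0.00195 of 10 mice.

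The KPTC differences were 3.57 ± 1.97 points at 10000 cells and 1.12 ± 0.70 points at 100000 cells, each positive in 12 of 12 mice (exact permutation test, adjusted p = 0.00645 for each). At 1000000 cells the difference was 0.15 ± 0.23 points (adjusted p = 0.123). Thus 2 of 3 sizes passed, against 27.3% of all pairs in KPTC. Fewer than 1 in 100 Setd2 tumours reached the largest class in any KPTC mouse, the highest share being 0.641%.

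In KLTC the difference at 10000 cells was -2.04 ± 2.84 points, with Setd2 above inert in only 3 of 13 mice (exact permutation test, p = 0.0242, adjusted p = 0.266). It was 0.54 ± 2.30 points at 100000 cells (adjusted p = 0.661) and 0.38 ± 1.14 points at 1000000 cells (adjusted p = 0.537). So 0 of 3 sizes passed, 1 of them at an unadjusted p under 0.05, and the share of pairs that passed in KLTC was 3.03%. Without matched tumours 1 of the 3 sizes passed, and with single-mouse barcodes 0.

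The same tumours can be counted by size class, as Setd2 tumours per 100 inert tumours summed over the mice of a genotype. In KTC there were 21.7 between 500 and 1000 cells, 20.7 up to 10000 cells, 31.9 up to 100000, 120 up to 1000000 and 133 above. That last value rests on 16 Setd2 and 12 inert tumours. In the class from 100000 to 1000000 cells, where Setd2 tumours (354) outnumbered inert ones (295), the 7 KTC mice with at least 10 inert tumours gave 84.6 to 182 per 100, with a median of 123.

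The KPTC counts were 19.3, 20.3, 30.1, 54.6 and 51.4 in the same 5 classes, and the KLTC counts 24.3, 27.6, 23.6, 28.5 and 49.0. The last KLTC class held 25 Setd2 and 51 inert tumours. Small tumours were therefore in like proportion in KTC and KPTC, whereas from 100000 cells upward the KTC proportion was more than 2 times that of KPTC. Leaving out matched tumours lowered the counts of the smaller classes, in KLTC to 17.2 and 19.7 in the first pair, and left KTC at 120 and 133 and KLTC at 28.6 and 49.0 in the last pair. These sums are a description and were not tested.

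**Figure D3:**
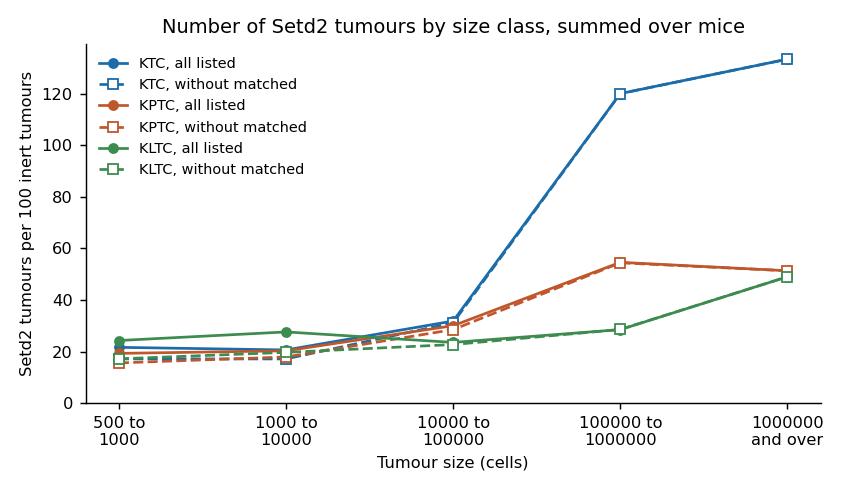
Setd2 tumours per 100 inert tumours are plotted by size class in cells, summed over the mice of each genotype, with solid lines for all listed tumours and dashed lines without matched tumours. The KTC line climbs from 20.7 to 120 between 1000 to 10000 cells and 100000 to 1000000 cells, KPTC reaches 54.6 and KLTC 28.5, and the lines without matched tumours differ mainly below 10000 cells.

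Setd2 tumours took a larger share of cells than of tumours in KTC. They made up 4.96% to 7.33% of the listed tumours of a KTC mouse (median 5.95%) and 8.12% to 22.7% of the listed cells (median 10.8%), and the share of cells exceeded the share of tumours in 10 of 10 mice. Listed cells per tumour, the arithmetic mean size, were 3.02-fold those of inert tumours (log2 ratio 1.59 ± 0.48, n = 10, exact permutation test, adjusted p = 0.0107; background 18.2%). This measure weights the largest tumours most, and it was at least 0.98 in every KTC mouse.

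In KPTC the share of tumours was 4.46% to 6.10% and the share of cells 4.08% to 19.5%, with medians of 5.81% and 6.57%. The share of cells exceeded the share of tumours in 7 of 12 mice. A share of cells also depends on the largest tumours of other targets. In replicate 8, which had the lowest share of cells, a Cdkn2a tumour held 101928718 cells. Tumours of other targets do not enter the ratio to inert tumours. The log2 ratio of cells per tumour was 0.87 ± 1.02 (n = 12, positive in 10 of 12 mice; exact permutation test, p = 0.00586, adjusted p = 0.0645). This did not pass, and neither did any other target in KPTC (0% of 11 targets, 2 of them at an unadjusted p under 0.05). It passed without replicate 7, whose inert tumours included the largest inert tumour of the genotype at 13548827 cells (0.99, adjusted p = 0.0322), without matched tumours (1.07, adjusted p = 0.0215) and with single-mouse barcodes (0.57, exact permutation adjusted p = 0.0179).

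In KLTC the share of tumours was 5.77% to 8.16% and the share of cells 3.90% to 12.2%, with medians of 7.13% and 7.10%. The log2 ratio of cells per tumour was 0.07 ± 0.46 (n = 13; exact permutation test, adjusted p = 0.733), and 9.09% of targets passed. Without matched tumours it was 0.47 (exact permutation adjusted p = 0.0335), and with single-mouse barcodes -0.11 (exact permutation adjusted p = 0.83). The share of cells exceeded the share of tumours in 6 of 13 mice. In replicate 12, where Setd2 tumours held 5.21% of the cells, an Rb1 tumour held 162631945 cells.

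Among the 100 largest tumours of a mouse, a KTC mouse had 13 to 25 with the Setd2 vector, a KPTC mouse 4 to 21 and a KLTC mouse 3 to 13. These counts stood above the share of Setd2 among all tumours of the same mouse by 11.5 ± 3.87 percentage points in KTC (10 of 10 mice; exact permutation test, adjusted p = 0.00537). The difference was 6.69 ± 5.45 points in KPTC (10 of 12 mice, exact permutation test, adjusted p = 0.00537) and 1.38 ± 3.04 points in KLTC (10 of 13 mice, adjusted p = 0.351). The shares of targets that passed were 72.7%, 54.5% and 18.2%, but in KTC 6 of the 8 passing targets were below their share of all tumours and 2 above. In KTC the median of 17 Setd2 tumours equalled that of inert tumours within 1 tumour (16.5), although inert tumours were 26.6% of all tumours by median. The 100 largest are not the same part of the distribution in each genotype. A mouse listed by median 15160 tumours in KTC, 10239 in KPTC and 2856 in KLTC, so the cut reaches deepest in KLTC.

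The single largest tumour of a mouse was a Setd2 tumour in 0 of 35 mice. The largest Setd2 tumour was larger than the largest inert tumour in 5 of 10 KTC mice, 3 of 12 KPTC mice and 1 of 13 KLTC mice. A maximum grows with the number of tumours drawn, and inert tumours were more numerous in every mouse. Tumours of at least 100000 cells numbered 370 with the Setd2 vector and 307 inert in KTC, 149 and 275 in KPTC, and 196 and 650 in KLTC.

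**Figure D4:**
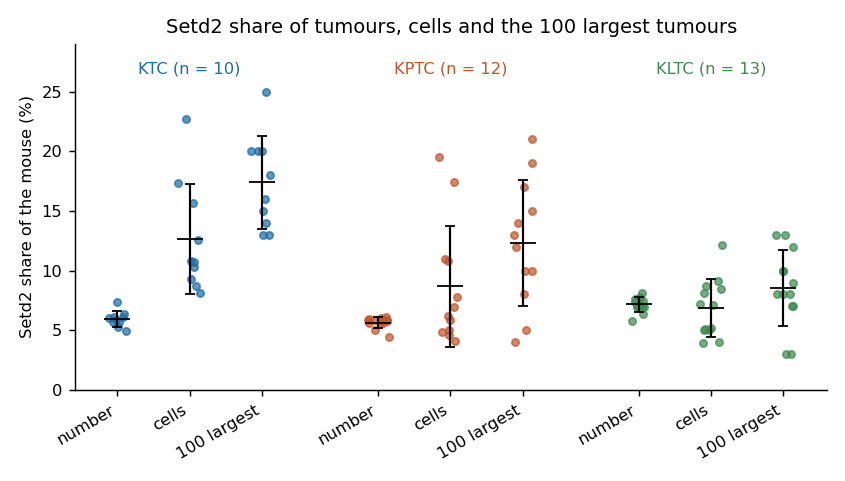
The share of a mouse's listed tumours, listed cells and 100 largest tumours that carried the Setd2 vector is plotted in percent, with points standing for mice and bars for their mean and SD. In KTC the medians are 5.95%, 10.8% and 17%, in KPTC 5.81%, 6.57% and 12.5%, and in KLTC 7.13%, 7.10% and 8%.

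The effect of Setd2 differed between the genotypes when all listed tumours were used. Differences between genotypes were tested by two-sided permutation of mouse labels, adjusted over the 11 targets of each comparison, and the 3 comparisons share their mice in pairs. The log2 size effect was 0.52 ± 0.17 (SE) lower in KPTC than in KTC, with means of 0.69 and 1.22 (difference -0.52, permutation adjusted p = 0.0203). It was lower in KLTC than in KTC by 1.10 (-1.10 ± 0.19, permutation adjusted p = 1.1e-04) and lower in KLTC than in KPTC (-0.57 ± 0.18, permutation adjusted p = 0.0115). Of all targets, 54.5%, 27.3% and 27.3% passed in these comparisons.

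Which tumours were counted decided the contrasts with KLTC. Without matched tumours the difference of KLTC from KTC was -0.47 (permutation adjusted p = 0.173) and that from KPTC changed sign to 0.14 (permutation adjusted p = 0.726). With matches sought only among the 15-week mice these differences were -0.49 (permutation adjusted p = 0.204) and 0.05 (permutation adjusted p = 0.919), whereas with barcodes listed in a single mouse they were -0.89 (permutation adjusted p = 0.0222) and -0.45 (permutation adjusted p = 0.146). Without barcodes of the 9-week mice they were -1.87 (permutation adjusted p = 9.35e-04) and -1.36 (permutation adjusted p = 0.00418). That filter removed large tumours unevenly. From 100000 to 1000000 cells, KLTC Setd2 tumours fell from 171 to 30 and inert ones from 599 to 535. In KTC they fell from 354 to 159 and from 295 to 279. The difference of KPTC from KTC kept its sign under each of these filters, at -0.62, -0.54, -0.44 and -0.51. It passed in all but the single-mouse barcodes (permutation adjusted p = 0.0561).

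The contrast at the 95th percentile was wider. It was -0.99 ± 0.35 for KPTC minus KTC (permutation adjusted p = 0.0471; background 36.4%), -2.24 ± 0.38 for KLTC minus KTC (5.5e-05; 18.2%) and -1.24 ± 0.36 for KLTC minus KPTC (0.00264; 18.2%). The first of these did not pass in 16 of the 22 fits that left out a mouse, holding only without KTC replicate 4, 5 or 10 or KPTC replicate 1, 8 or 9. Without matched tumours the KLTC contrasts were -2.18 (permutation adjusted p = 1.1e-04) and -1.14 (permutation adjusted p = 0.0301), and both passed. With single-mouse barcodes none of the 3 passed (-0.64, -1.58 and -0.94), and within mice named IW only KLTC minus KTC did (-2.34). With a minimum of 1500 cells KPTC minus KTC was -0.25 and did not pass. At the 99th percentile KPTC minus KTC was only -0.06 (permutation adjusted p = 0.89).

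For cells per tumour the difference was -0.72 ± 0.33 for KPTC minus KTC (permutation adjusted p = 0.296; 9.09% of targets passed). It was -1.53 ± 0.20 for KLTC minus KTC (permutation adjusted p = 5.5e-05; 18.2%) and -0.80 ± 0.32 for KLTC minus KPTC (permutation adjusted p = 0.0467; 27.3%). The last of these was lost in 16 of the 25 fits that left out a mouse, holding only without KPTC replicate 3, 5, 6, 7, 10 or 11 or KLTC replicate 2, 9 or 12. It also did not pass in any of the 5 other settings tried, at a 1500-cell minimum, at 5 ladder steps, without matched tumours, with single-mouse barcodes or within mice named IW. The KLTC minus KTC difference passed in every one of its 23 such fits, at -1.59 to -1.43.

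The number of Setd2 tumours relative to inert tumours, as a log2 ratio, was -2.22 ± 0.28 in KTC, -2.33 ± 0.20 in KPTC and -1.93 ± 0.30 in KLTC. KPTC and KTC differed by -0.11 ± 0.11 (permutation adjusted p = 0.923; 9.09% of targets passed), KLTC and KTC by 0.29 ± 0.12 (0.14; 0% of targets, 3 of them at an unadjusted p under 0.05) and KLTC and KPTC by 0.40 ± 0.10 (0.00396; 27.3%). The relative number was thus higher in KLTC than in KPTC, by 1.32-fold. Without matched tumours this difference was 0.18 (permutation adjusted p = 0.422).

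Tumours of at least 10000 cells were seldom matched, and their number was compared as well. The log2 ratio of their number was -1.02 ± 0.45 in KTC, -1.33 ± 0.57 in KPTC and -2.01 ± 0.29 in KLTC. The difference was -0.31 ± 0.22 for KPTC minus KTC (permutation adjusted p = 0.279; 9.09%), -0.98 ± 0.16 for KLTC minus KTC (1.1e-04; 18.2%) and -0.67 ± 0.18 for KLTC minus KPTC (0.00291; 36.4%). Relative to inert tumours, large Setd2 tumours were thus 1.98-fold more numerous in KTC than in KLTC. Without matched tumours the KLTC differences were -0.94 and -0.62 and both passed (permutation adjusted p = 1.1e-04 and 0.00451). With single-mouse barcodes alone, which leave 700 Setd2 tumours in KLTC, they were -0.68 and 0.04 and neither passed.

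The pool allowed Setd2 to be set beside the other 10 targets in the same mice. In KTC its size effect was the highest of the 11 by mean, first in 7 of 10 mice and second in the other 3. It exceeded 9 of the 10 others (exact permutation test on the per-mouse differences, adjusted p = 0.00217 for each). The exception was Lkb1, whose effect was 1.0 and from which Setd2 differed by 0.21 ± 0.42 (7 of 10 mice, exact permutation adjusted p = 0.143). The next target, Rbm10, a splicing regulator, had an effect of 0.26, and Arid1a, a subunit of the SWI/SNF chromatin remodelling complex, one of 0.02.

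In KPTC Setd2 again had the highest mean, first in 6 of 12 mice, and exceeded 9 of the 10 others. It did not pass against Rb1, the retinoblastoma protein that restrains cell cycle entry (difference 0.20 ± 0.36, 7 of 12 mice, exact permutation adjusted p = 0.082). The difference from Lkb1 was 0.29 ± 0.42 (exact permutation adjusted p = 0.0315). Arid1a and Rbm10 had effects of 0.16 and 0.10, so the other 2 chromatin and RNA processing genes of the pool were well below Setd2.

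In KLTC the mean effect of Setd2 was seventh of 11, between Keap1 and Rbm10, and it was first in 1 mouse and last in 2. It differed from 0 of 10 targets after adjustment, and from 1 before it, APC, which was larger (difference -0.55 ± 0.68, exact permutation p = 0.0115, adjusted p = 0.115). Arid1a stood at 0.34 and Rbm10 at 0.12. Setd2 exceeded 4 of the 10 without matched tumours, under the filter conditioned on size, and 0 with single-mouse barcodes.

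Lkb1 was the target whose per-mouse size effects were closest to those of Setd2 over the 35 mice, with a root mean square difference of 0.61 on the log2 scale. Rbm10 followed at 0.80 and P53 was farthest at 0.97. This order came from KTC, where Lkb1 stood at 0.45 and the next target at 1.05. In KPTC Rb1 was closer (0.40 against 0.50 for Lkb1), and in KLTC 5 targets were closer than Lkb1 (0.79), led by ATM at 0.47. In KLTC mice the Lkb1 vector targets a gene already deleted, and its mean effect there was -0.27. The mice enter these values with their genotype differences, so the likeness is a description and was not tested.

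Counted over all 53 mice of the series, barcodes were shared between mice more often among Setd2 than among inert tumours. The same target and barcode was listed in more than 1 mouse for 62.9% of Setd2 tumours in KTC, 63.0% in KPTC and 77.9% in KLTC, against 44.6%, 46.8% and 63.9% of inert tumours. Matched tumours, as defined above, were 21.9%, 19.4% and 44.0% of Setd2 tumours, and 6.98%, 6.85% and 26.4% of inert ones. Matches were mostly small tumours: in KLTC they were 50% of Setd2 and 29.9% of inert tumours under 10000 cells, and 4.80% and 3.47% of those at or above.

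Part of this sharing was with the 9-week mice. The Setd2 barcodes of 53.9%, 51.1% and 65.7% of Setd2 tumours in KTC, KPTC and KLTC were also listed in a 9-week mouse, against 5.91%, 5.76% and 6.66% of inert tumours. The 9-week mice list 57077 Setd2 tumours and 17384 inert ones, and how far these numbers bear on the shares was not tested. With matches sought only among the 15-week mice, matched Setd2 tumours were 9.29%, 8.77% and 36.5%, and inert ones 6.26%, 6.07% and 26.0%. The KLTC size effect without these was 0.81 ± 0.90 (n = 13, exact permutation adjusted p = 0.0389). What the shared barcodes stand for was not tested.

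Effects in KTC and KPTC passed under each of the barcode filters. Without matched tumours they were 1.54 ± 0.41 and 0.92 ± 0.44, and with single-mouse barcodes 0.74 ± 0.49 and 0.30 ± 0.19 (exact permutation adjusted p = 0.0143 and 0.00403). The KLTC value of -0.15 with single-mouse barcodes is over 11 mice. That of -0.72 without barcodes of the 9-week mice leaves out large tumours, since all 25 Setd2 tumours of KLTC mice with at least 1000000 cells have such barcodes. Nor is the single-mouse filter even over sizes: in KLTC 83.9% of Setd2 tumours of at least 10000 cells were listed in more than 1 mouse, against 77.0% of smaller ones.

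**Figure D5:**
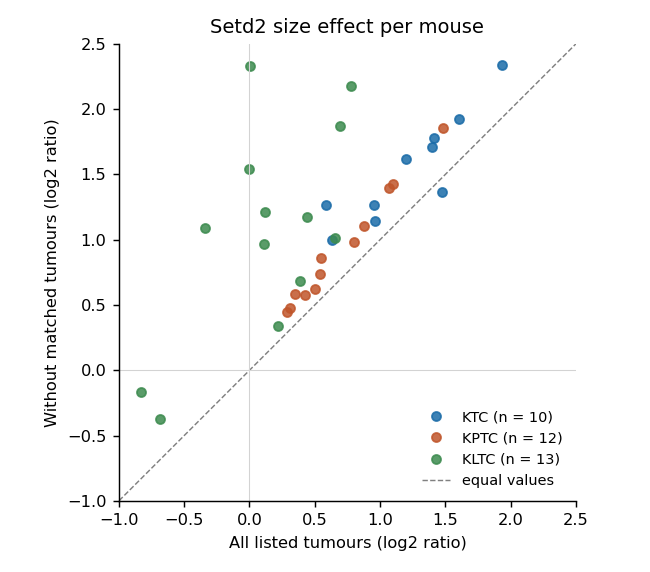
The log2 size effect of Setd2 in each mouse is plotted with all listed tumours on the horizontal axis and without matched tumours on the vertical axis, with the dashed line for equal values. All 12 KPTC points and 9 of the 10 KTC points lie above the line, and the 13 KLTC points lie above it too, by up to more than 2 on the log2 scale, with 2 still below 0.

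Facts of the libraries bear on all of these values. A KTC mouse listed 1271 to 26167 tumours, a KPTC mouse 3553 to 30646 and a KLTC mouse 723 to 15067, and read counts are not in the table. The listed sizes of a mouse fall on a regular ladder whose step was 2.31 to 486 cells, with medians of 62.1 in KTC, 104 in KPTC and 77.3 in KLTC. The meaning of a step is not stated in the labels or the file. The smallest listed size was 501 to 982 cells and lay 2.02 to 217 steps up the ladder. With tumours of at least 5 steps the size effects were 1.29, 0.75 and 0.07.

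Mouse names begin with letters that differ within genotypes. Within the mice named IW, the size effect was 1.22 ± 0.47 in KTC (n = 8, exact permutation adjusted p = 0.0172), 0.67 ± 0.45 in KPTC (n = 7, exact permutation adjusted p = 0.043) and 0.18 ± 0.51 in KLTC (n = 7, exact permutation adjusted p = 0.614). The 5 KPTC mice without letters gave 0.72 ± 0.30, for which an exact test cannot go below 0.0625, and the 6 KLTC mice named ZR gave 0.05 ± 0.53. Only 2 KTC mice were named MW, too few for a value of their own. Between genotypes within IW mice, KLTC minus KTC was -1.04 (permutation adjusted p = 0.00556), KPTC minus KTC -0.55 (permutation adjusted p = 0.0755) and KLTC minus KPTC -0.49 (permutation adjusted p = 0.165).

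The size effect showed no relation to the number of listed tumours or to the smallest listed size that passed within genotypes. Neither measures read depth, which is unknown. Over 6 relations, of the log-normal effect with the log10 number of listed tumours and with the smallest listed size, Pearson's r ran from -0.49 to -0.06 and Spearman's rho from -0.58 to 0.15 (permutation tests, lowest adjusted p = 0.396 for r and 0.421 for rho). Leaving out the 2 mice farthest from the median gave r between -0.64 and -0.06. Relations with the step of the ladder were not tested. The KTC mice with the coarsest steps, replicates 5 and 4 (462 and 132 cells), had the lowest effects of that genotype, 0.64 and 0.59. In KPTC the coarsest step (486 cells, replicate 12) went with an effect of 0.50, and the lowest effect (0.29, replicate 11) with a step of 91.0 cells.

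At 9 weeks the mice carried a single vector, so no mouse held both kinds of tumour. The log-normal mean size had a median of 29053 cells in 7 KLTC mice given the Setd2 vector (2309 to 319334) and 5931 in 5 given the inert vector (1339 to 472495). In KPTC it was 6246 in 3 mice with the Setd2 vector (2397 to 13313) and 1746 in 3 with the inert vector (1201 to 4128). The ranges overlap in both genotypes, and these mice are given as context, with no test.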

How the data were processed

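Sizes came from 1 table that the authors deposited, in absolute numbers of cells per tumour, per the labels. How reads were grouped into barcodes, filtered and scaled to cells is not stated in the labels or the file. Barcodes were amplified by PCR from DNA of whole lungs, per the labels' protocols. All listed sizes were above 500 cells. Mice were assigned to groups by their names and labels. Levels were computed per mouse and target with at least 10 tumours, and the log-normal mean was computed as exp(m + 0.5 v), with m and v the mean and variance of ln size. Numbers were taken as log2 ratios with a pseudocount of 0.5. Means over mice were tested against 0 by two-sided exact sign-flip permutation. Genotypes were compared by permuting mouse labels (100000 resamples, smallest p 1e-05). Benjamini-Hochberg adjustment ran over the 11 targets, or 55 and 33 target-percentile and target-size pairs, at a threshold of 0.05. Every percentile and size of the design is named, as is every target except Smad4, which was tested with the others. Setd2 and all settings were chosen with earlier results of these data known. Tests of different targets are not independent, since they use the same inert tumours. The size test was tried on simulated sizes, drawn from the inert tumours of each mouse and multiplied by a fixed factor for Setd2 and Lkb1. The simulation did not model shared barcodes or a ratio that changes with the percentile, so it does not bear on those. Tools were Python 3.11.15, numpy 2.4.6, pandas 2.3.3, scipy 1.17.1 and matplotlib 3.10.9. Alternatives were minimum sizes of 1000, 1500 and 5000 cells, other summaries, barcode filters, at least 30 tumours, mice of 1 ID prefix and each mouse left out. A minimum of 5 ladder steps, matches among 15-week mice only, and the number of large tumours without 9-week barcodes were added after the data were seen.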

Additional observations from a re-analysis of the deposited data

Results flagged for a closer look

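In KTC replicate 9 the log2 number of Setd2 against inert tumours was -2.93, far from the -2.32 to -1.84 of the other 9 mice. It is the mouse with the fewest listed tumours of its genotype (1271, of them 63 Setd2). Inert tumours were 37.9% of its listed tumours, the highest share of a KTC mouse (median 26.6%). Setd2 tumours were 4.96%, the lowest share (median 5.95%), so the ratio is low largely through its inert tumours. About 1 in 20 groups is flagged this way by chance, and 13 sets of KTC values were examined. KLTC replicate 1, which was not flagged, had 38.5% inert tumours and a log2 number of -2.72.

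The other results flagged are differences of the Setd2 effect between genotypes that passed a permutation test of the difference. For the size effect they were -0.52 for KPTC minus KTC, -1.10 for KLTC minus KTC and -0.57 for KLTC minus KPTC. For the 95th percentile they were -0.99, -2.24 and -1.24 in the same order. For cells per tumour they were -1.53 for KLTC minus KTC and -0.80 for KLTC minus KPTC, the last of which passed in 0 of 5 other settings. For the number of all tumours the difference was 0.40 for KLTC minus KPTC. For tumours of at least 10000 cells it was -0.98 for KLTC minus KTC and -0.67 for KLTC minus KPTC. These comparisons share mice and tumours and are not independent.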

How the results depend on the processing

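Read depth per tumour is unknown and each library lists only tumours above about 500 cells, so sizes below that could not be seen. The cause of each change was not tested, except that a filter leaves fewer tumours and a single prefix fewer mice. The Setd2 size effects in KTC and KPTC kept their sign in every setting tried. That in KTC lost its call with the median in place of the log-normal mean (0.19), and that in KPTC within the 5 mice without a prefix (0.72).

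The KPTC minus KTC size difference lost its call at minimum sizes of 1000, 1500 and 5000 cells (-0.49, -0.47 and -0.45), with single-mouse barcodes (-0.44), with the median (-0.087), with the 99th percentile (-0.056) and within IW mice (-0.55). KLTC minus KPTC lost it at 5000 cells (-0.63), with single-mouse barcodes (-0.45), with the median (-0.078) and within IW mice (-0.49). KLTC minus KTC lost it with the median (-0.17). At 1500 cells the calls of the 95th percentile for KPTC minus KTC (-0.25) and of cells per tumour for KLTC minus KPTC (-0.85) were lost, and the latter also at 5 ladder steps (-0.80).

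Without matched tumours, a filter conditioned on size, the KLTC size effect (1.07), cells per tumour in KPTC (1.07) and KLTC (0.47) and the KLTC excess among the 100 largest (2.92 points) passed. In KLTC 2 percentiles, 1 fixed size and 4 other targets then passed. The size difference KLTC minus KTC (-0.47) and, for KLTC minus KPTC, cells per tumour (-0.59) and number (0.18) lost their calls, as did the 95th percentile for KPTC minus KTC (-1.04). The KLTC minus KPTC size difference turned to 0.14. With matches in 15-week mice only, the KLTC effect was 0.81 and passed, KLTC minus KTC was -0.49 and did not pass, and KLTC minus KPTC turned to 0.052.

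With single-mouse barcodes, fixed sizes passed 0 times in KTC and 0 in KPTC, and 2 percentiles and 2 other targets passed in KPTC. Cells per tumour in KPTC passed (0.57) and its excess among the 100 largest did not (1.82 points). The 95th percentile lost all 3 calls (-0.64 for KPTC minus KTC, -1.58 for KLTC minus KTC, -0.94 for KLTC minus KPTC). Cells per tumour (-0.68) and number (0.11) for KLTC minus KPTC and the number of large tumours for KLTC minus KTC (-0.68) lost theirs, and the last for KLTC minus KPTC turned to 0.039.

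Within IW mice 0 percentiles and 0 fixed sizes passed in KPTC, nor did the excess among the 100 largest (6.05 points). With 7 KPTC mice no exact p can go below 0.0156, which limits what can pass after adjustment over 55 or 33 pairs. Calls were also lost for the 95th percentile (-1.16 for KPTC minus KTC, -1.18 for KLTC minus KPTC). For KLTC minus KPTC they were lost for cells per tumour (-0.84), number (0.25) and number of large tumours (-0.63). In the 5 KPTC mice without a prefix 0 percentiles, 0 fixed sizes and 0 other targets passed, nor did the excess among the 100 largest (7.57 points), in a design whose smallest exact p is 0.0625.

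With each mouse left out in turn, the KPTC minus KTC 95th percentile ranged from -1.13 to -0.89, KLTC minus KPTC cells per tumour from -0.92 to -0.61 and fixed sizes passed in KTC from 1 to 3. Cells per tumour ranged from 0.68 to 0.99 in KPTC, passing without KPTC replicate 7, and from -0.92 to -0.61 for KPTC minus KTC, passing without KPTC replicate 9. Number ranged from 0.21 to 0.36 for KLTC minus KTC, passing without KLTC replicate 1, and from -0.19 to -0.064 for KPTC minus KTC, passing without KTC replicate 9. The other size effects, differences and excesses among the 100 largest kept their side of the threshold in all such fits.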
